A study of Rattus norvegicus with 12 samples.

Results

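Hepatocytes taken from rats 16 h after death were compared with hepatocytes from heart-beating rats, gene by gene, to describe which transcripts differed and by how much. Every gene with a measurement was a member of the comparison: of 31042 probe sets other than controls on the array, 20826 carried a single gene symbol, and they stood for 14217 genes. All animals were rats of the strain given as Fischer 334. A liver was perfused with collagenase in 2 steps, the released hepatocytes were not placed in culture, and their total RNA was copied, labelled with biotin and hybridised to an Affymetrix expression array. The comparison uses 6 of the 12 arrays of the study, 3 from heart-beating donors and 3 from donors dead for 16 h, each from a different animal. The other 6 came from donors dead for 4 h and 30 h and entered the same model. No sex, age, cause of death, storage temperature or hour of the day is given in the sources used here, so the interval after death and the hour at which a liver was taken cannot be told apart.

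Hepatocytes are the parenchymal cells of the liver, which make most plasma proteins, release glucose between meals, turn ammonia into urea, make bile acids and clear drugs. They are freed from the organ by enzyme digestion, and a preparation can carry along Kupffer cells, sinusoidal endothelial cells, stellate cells and blood cells. Many of their metabolic genes follow a daily rhythm set by a clock, in which the activators BMAL1, CLOCK and NPAS2 switch on their own repressors, the period and cryptochrome proteins, and the nuclear receptors REV-ERB alpha and beta, which shut off the activators in turn.

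Values are log2 signals, so a difference of 1 is a 2-fold change, and n is 3 animals per group throughout. Calls rest on limma, with Benjamini-Hochberg adjustment over all 14217 genes and an adjusted p under 0.05. By this rule 845 genes (5.94%) were called, 651 higher (4.58%) and 194 lower (1.36%) at 16 h, and 47 (0.331%) were called with a change of at least 2-fold, 34 higher and 13 lower. The groups did not overlap in 4535 genes (31.9%), with 2430 (17.1%) higher and 2105 (14.8%) lower at 16 h. Taken one by one, 1260 of the 20826 probe sets with 1 symbol were called (6.05%), and 314 of the 10216 with several symbols or none (3.07%). The median difference over all genes was -0.01, that of genes called higher 0.45 and that of genes called lower -0.49. Among called genes 77% were higher, against 62.3% where arrays were normalized by cyclic loess and 60.2% by quantiles once more. Calls were sparse at both ends of the scale: 11.7% of genes with a control mean from 8 to 10 were called, 1.89% of those from 4 to 6, and 2.72% of those above 12, of which 0 were higher and 4 lower.

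**Figure D1:**
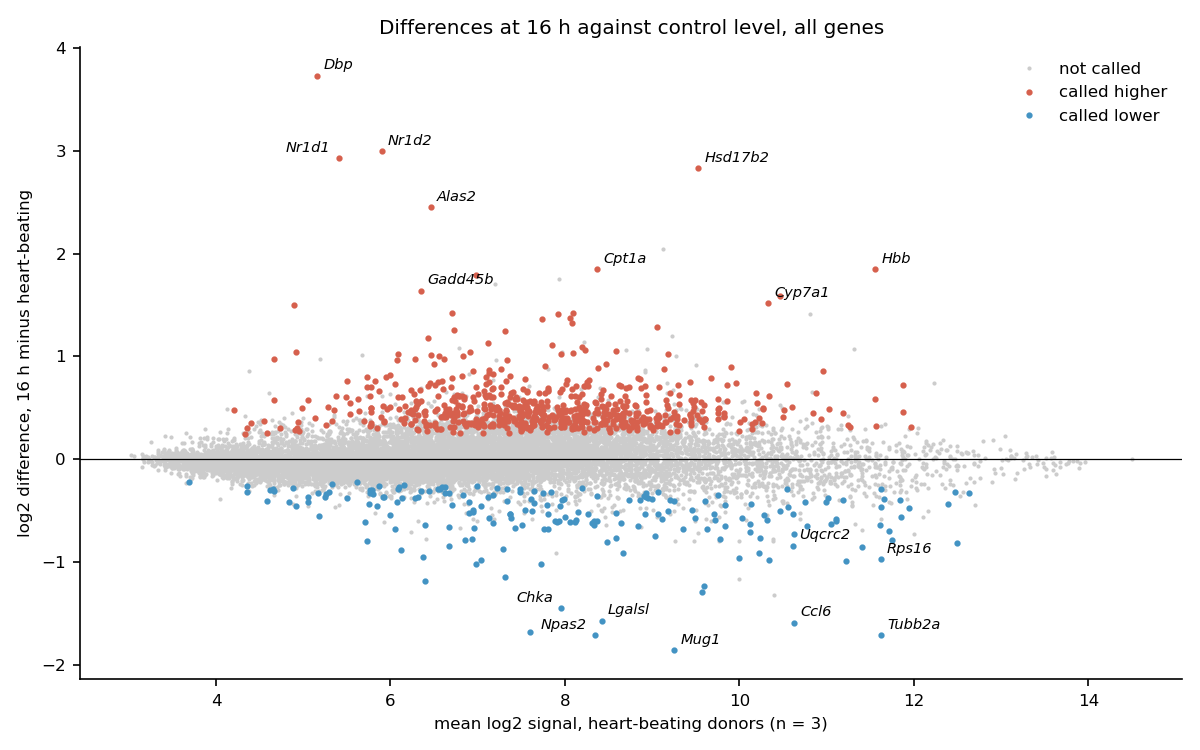
Each point is 1 of 14217 genes, with the mean log2 signal of 3 heart-beating donors across and the log2 difference of 16 h minus heart-beating upward. Red and blue points are the 651 genes called higher and the 194 called lower by limma, and clock genes hold the top of the plot.

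Some properties of the arrays move with these results. For Gapdh, control probe sets at both transcript ends gave a 3' minus 5' difference, which grows as RNA loses its 5' part, of 0.45, 0.41 and 0.31 log2 units in heart-beating donors and 0.85, 1.25 and 1.06 at 16 h, a difference of 0.66 (exact two-sided permutation p = 0.1, the smallest that 3 against 3 can give). For Actb the same quantity was 1.85 ± 0.05 and 2.21 ± 0.33 (SD), a difference of 0.36 (exact permutation p = 0.2). With the Gapdh quantity as a covariate 102 genes were called, 57 of them among the 845. That quantity did not overlap between the groups, so its part and that of time after death cannot be told apart. Heart-beating donor 2 stood apart from the other controls: 46 genes lay at least 1 log2 unit above both of them there, against 0 to 3 genes in each other array of either group, and 31 of 36 measured immediate early genes were highest in it among the controls. Without this donor 551 genes were called (439 higher, 112 lower). The count also fell without other single animals, to 549 and 261 without heart-beating donors 1 and 3 and to 299 and 244 without 16 h animals 1 and 2, and rose to 1328 without 30 h animal 1. In all 12 fits that left out 1 array, 189 genes were called, 142 higher and 47 lower. These are named below as lasting calls; for any other called gene, the animals without which the call ended are given with the range of the difference in those fits. The part of RNA quality in any single result was not tested beyond the covariate. Other probe sets are given below for some genes only. Of 368 called genes with other probe sets, 62 (16.8%) had another called the same way.

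Clock genes had the highest share of called members among the 53 gene lists. Of 21 measured members 6 rose, 4 fell and 11 were not called, with a median difference of 0.22 against -0.01 over all genes. This and every later list count is to be read beside the shares over all genes, 4.58% called higher and 1.36% lower. Those shares vary with signal, and lists of well-expressed genes start from larger ones. Of 2480 genes with a control mean from 8 to 10, 241 were called higher and 49 lower. From 10 to 12, 32 of 731 genes were called higher and 37 lower. The activators Npas2, Bmal1 and Clock fell, as did the repressor Cry1, while the repressors Nr1d1, Nr1d2, Per1 and Per3 and the output factors Dbp and Tef rose. All 6 rises and 3 of the falls were lasting calls, and none of the 12 fits with 1 array left out moved either count by more than 1.5 times. Values at 4 h and 30 h follow the 16 h values.

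Among the output factors, Dbp, which binds D-box elements in genes of drug and lipid metabolism, read 5.08, 5.26 and 5.13 in the heart-beating donors and 9.44, 8.41 and 8.81 at 16 h. The lowest 16 h array lay more than 3 log2 units above the highest control, and the difference was 3.73 (SE 0.19, adjusted p = 2.27e-07), or 13.3-fold. Tef, a D-box factor of the same family, read 7.90, 7.81 and 7.83 against 9.21, 8.96 and 8.69, a difference of 1.11 (SE 0.12). The third member of the family, Hlf, differed by 0.28 with overlapping groups and was not called (adjusted p = 0.172). Nfil3, which competes for the same elements as a repressor, read 8.44, 9.57 and 8.61 in controls and 8.21, 8.23 and 8.21 at 16 h. Its groups did not overlap, but donor 2 widened the control spread and the difference of -0.66 was not called (adjusted p = 0.0883).

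Among the repressors, Nr1d1 (REV-ERB alpha) read 5.39, 5.46 and 5.38 in heart-beating donors against 8.55, 8.22 and 8.24 at 16 h, a 7.6-fold difference (log2 2.93, SE 0.14, adjusted p = 1.19e-07). Nr1d2 (REV-ERB beta) read 5.70, 6.08 and 5.92 against 8.98, 8.79 and 8.94, or 8.02-fold (log2 3.00, SE 0.33, adjusted p = 0.000496). In both genes the 3 arrays at 16 h were tightly grouped and far from every control. The period genes did not move as one. Per3 read 4.83, 4.97 and 4.87 against 6.90, 6.14 and 6.12 (difference 1.50, SE 0.17, adjusted p = 0.000679), with 16 h animal 1 above the other 2. The 1 other probe set of Per3 was not called. Per1 rose less, by 0.65 (SE 0.11, adjusted p = 0.00628), and Per2 differed by -0.18 with overlapping groups (adjusted p = 0.237). Of the cryptochromes, which act with the period proteins, Cry1 read 7.04, 7.31 and 6.58 against 6.38, 5.60 and 5.89, a fall by 1.02 (SE 0.23, adjusted p = 0.0214). That call ended without 16 h animal 2 or 3 or heart-beating donor 1 or 2 (-0.99 to -0.85). Cry2 differed by 0.26 and was not called (adjusted p = 0.156).

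Among the activators, Npas2 read 8.36, 8.32 and 8.33 in heart-beating donors and 6.70, 6.64 and 6.53 at 16 h, a fall by 1.71 (SE 0.14, adjusted p = 3.2e-05) with replicates of each group within 0.2 log2 units. Bmal1 read 7.22, 7.52 and 7.19 against 6.24, 6.32 and 5.94 and fell by 1.15 (SE 0.13, adjusted p = 0.000552). Clock, the usual partner of BMAL1, read 7.96, 7.72 and 7.75 against 7.20, 7.34 and 7.27, a smaller fall by 0.53 (SE 0.09, adjusted p = 0.0069), with 0 of 3 other probe sets called. The groups did not overlap in any of the 3 genes. Rora, a receptor that activates Bmal1 through the element that REV-ERB proteins also bind, differed by -0.13 (adjusted p = 0.44). The remaining members, none of them called, were Csnk1d (0.41, adjusted p = 0.0508) and Csnk1e (0.02), kinases of the period proteins, Noct (0.88, adjusted p = 0.352), a clock-controlled phosphatase, the repressors Bhlhe40 (-0.31) and Bhlhe41 (0.22), and Bmal2 (0.04). In Noct the control values were 7.01, 9.33 and 7.06, with donor 2 above all 16 h arrays (9.25, 8.55 and 8.23).

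**Figure D2:**
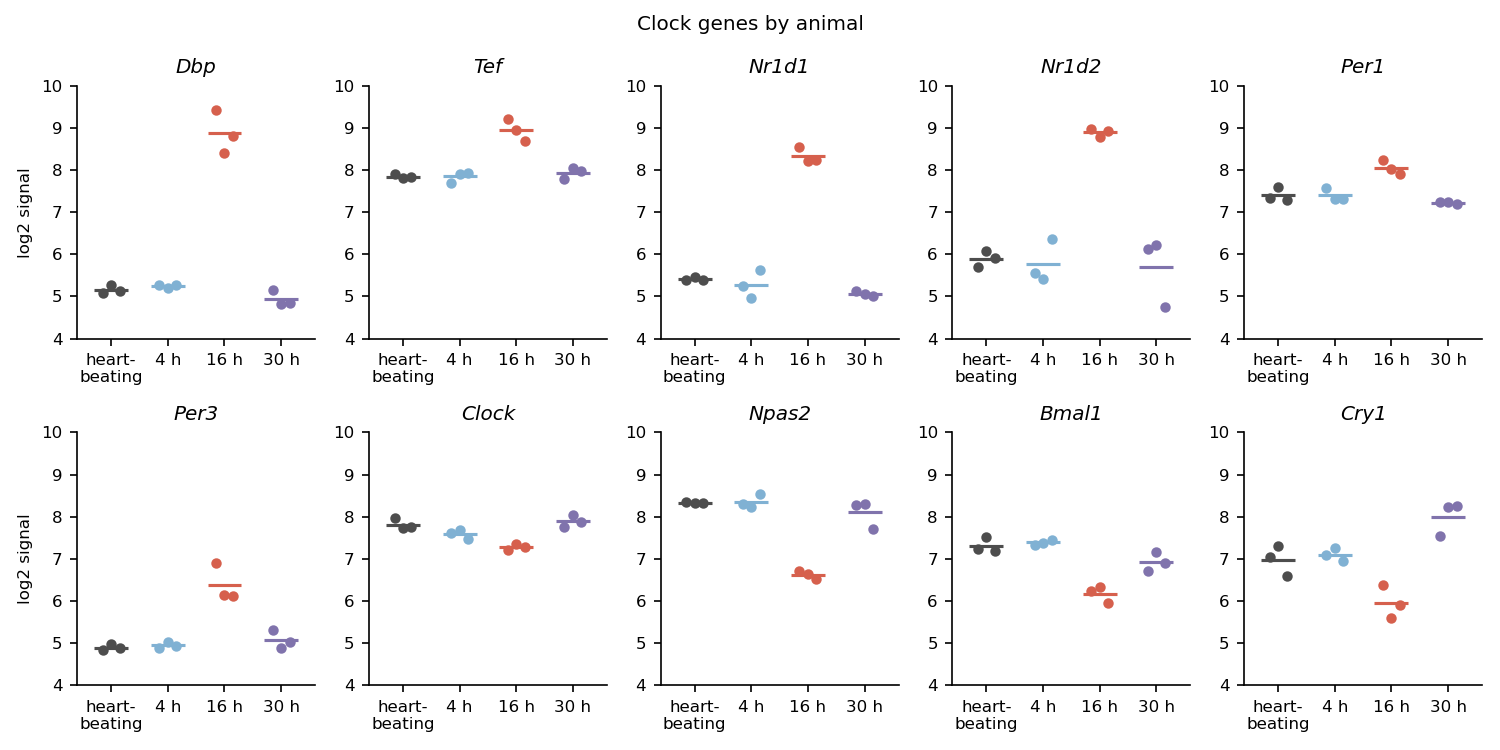
Log2 signal of the 10 called clock genes, 1 panel per gene, in the 4 groups of 3 animals, with points for animals and bars for group means. The 16 h arrays sit apart from heart-beating donors in every panel, up in Dbp, Tef, Nr1d1, Nr1d2, Per1 and Per3 and down in Clock, Npas2, Bmal1 and Cry1.

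The other times are set beside these values without a test between them here, since all comparisons share the same controls. Relative to heart-beating donors, Dbp stood at 0.09 (4 h) and -0.22 (30 h), Nr1d1 by -0.13 and -0.35, and Nr1d2 by -0.12 and -0.20. For Per3 the differences were 0.06 and 0.19 and for Tef 0.00 and 0.10. Npas2 stood at 0.02 and -0.24, Bmal1 at 0.08 and -0.39, and Cry1 at 0.12 and 1.02. Thus Cry1 lay below the controls at 16 h and above them at 30 h. With the Gapdh covariate, 4 clock genes remained called higher and 1 lower, with Dbp, Nr1d1, Per3, Tef and Npas2 as the 5.

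Promoters of the 10 called clock genes were searched because BMAL1 with CLOCK or NPAS2 binds the E-box CACGTG, REV-ERB and ROR proteins bind their shared response element, D-box factors bind TTANGTAA and CREB binds TGACGTCA. Windows of 250 bases before to 50 after a gene's start were taken from RefSeq (build GRCr8), and both strands were searched for these 4 motifs. Windows were found for 9 of the 10 genes, all but Cry1. Those of Tef, Bmal1 and 1 of the 2 starts of Nr1d1 held a match and are printed, with the other start of Nr1d1 for comparison, and those of Dbp, Nr1d2, Per1, Per3, Clock and Npas2 held none of the 4 motifs. An E-box occurs in 6.42% of all 33469 windows, the D-box in 2.24%, the REV-ERB and ROR element in 0.852% and the CREB element in 1.83%. Bmal1, at chr1:176766078-176766377 on the plus strand, holds AAGTAGGTCA (capitals) beginning at base -19 from the start. The window of Tef, chr7:115206577-115206876 on the plus strand, holds CACGTG (capitals) beginning at base -198. The window of Nr1d1 at chr10:84229405-84229704 on the minus strand holds CACGTG (capitals) beginning at base -191 from the start, and the one at its other start, chr10:84231763-84232062, holds none of the 4. A match is a description of letters and shows no binding in these samples.
Bmal1: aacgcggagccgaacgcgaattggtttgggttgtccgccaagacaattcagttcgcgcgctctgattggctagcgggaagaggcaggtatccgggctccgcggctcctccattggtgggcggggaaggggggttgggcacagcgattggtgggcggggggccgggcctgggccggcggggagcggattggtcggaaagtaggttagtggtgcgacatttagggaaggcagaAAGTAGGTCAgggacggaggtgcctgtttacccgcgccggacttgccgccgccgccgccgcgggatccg
Tef: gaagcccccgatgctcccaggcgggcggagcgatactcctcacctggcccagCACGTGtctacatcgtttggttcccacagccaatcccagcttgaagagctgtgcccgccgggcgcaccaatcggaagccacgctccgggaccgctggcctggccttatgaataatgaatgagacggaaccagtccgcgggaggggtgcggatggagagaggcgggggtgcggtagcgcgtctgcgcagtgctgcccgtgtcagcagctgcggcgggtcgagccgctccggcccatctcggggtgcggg
Nr1d1, start with the E-box: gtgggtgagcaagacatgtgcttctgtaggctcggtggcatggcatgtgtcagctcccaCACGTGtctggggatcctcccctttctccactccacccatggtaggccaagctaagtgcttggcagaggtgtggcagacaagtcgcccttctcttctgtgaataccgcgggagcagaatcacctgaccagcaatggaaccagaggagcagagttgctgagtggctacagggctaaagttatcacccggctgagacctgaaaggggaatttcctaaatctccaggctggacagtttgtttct
Nr1d1, other start: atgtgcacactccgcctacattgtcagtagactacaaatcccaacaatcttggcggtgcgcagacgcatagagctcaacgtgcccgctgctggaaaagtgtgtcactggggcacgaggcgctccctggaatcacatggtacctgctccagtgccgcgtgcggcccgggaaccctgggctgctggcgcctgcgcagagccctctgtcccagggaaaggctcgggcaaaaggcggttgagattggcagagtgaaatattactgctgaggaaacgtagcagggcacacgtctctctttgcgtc

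Of the genes outside the clock list, Hsd17b2, which oxidises estradiol and testosterone to less active steroids, had the largest rise. It read 9.36, 9.55 and 9.68 in heart-beating donors and 12.59, 12.12 and 12.37 at 16 h, or 7.11-fold (log2 2.83, SE 0.13, adjusted p = 1.19e-07). It was the 1 called member of 27 genes of steroid and retinoid metabolism, against 5.94% called over all genes. Cpt1a, the gatekeeper of mitochondrial fatty acid oxidation, read 8.41, 8.69 and 8.02 against 10.61, 10.36 and 9.70, a difference of 1.85 (SE 0.21, adjusted p = 0.000759). The 1 other probe set of Cpt1a was not called. The groups overlapped in neither Hsd17b2 nor Cpt1a, as the choice of the 30 largest rises required. At 30 h Hsd17b2 stood at -0.30 from heart-beating donors (limma, adjusted p = 0.118, not called) and Cpt1a at -0.84 (adjusted p = 0.0125).

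Pim3, a growth-promoting kinase, read 7.80, 8.24 and 7.71 against 9.33, 9.55 and 9.11 (difference 1.41, SE 0.17). Ccnd1, the cyclin that drives entry into the cell cycle, read 8.18, 7.91 and 8.16 against 9.26, 9.51 and 9.44 (1.32, SE 0.16), and both of its other probe sets were called higher too. Il1r1, the receptor of interleukin 1, read 9.06, 9.28 and 8.82 against 10.46, 10.41 and 10.16 (1.29, SE 0.14). In these 3 genes the groups were apart by more than 0.8 log2 units. Bcar3, an adaptor of Src family signalling, rose by 1.26 (SE 0.11), and Magi3, a scaffold protein of cell junctions, by 1.13 (SE 0.14). Znrf3, a ubiquitin ligase that removes Wnt receptors, rose by 1.01 (SE 0.15), Jade1, a subunit of a histone acetyltransferase complex, by 1.02 (SE 0.09), and Tbcel, a tubulin cofactor-like protein, by 1.03 (SE 0.08). All 8 of these rises were lasting calls of at least 2-fold. Their adjusted p lay between 3.2e-05 and 0.00417. Il1r1, Magi3 and Jade1 each had 2 other probe sets and Tbcel had 1, of which 0 were called. Just under 2-fold were Baiap2l1 (1.00), an organiser of actin at membranes, Clec14a (0.97), a lectin of endothelial cells, RGD1559600 (0.96), Osbpl11 (0.93), an oxysterol-binding protein, Fbxo31 (0.91), a ubiquitin ligase subunit, Sik2 (0.87), a salt-inducible kinase, Gpr146 (0.83), an orphan receptor, Pf4 (0.82), a platelet chemokine, and Tasor (0.81), a subunit of a silencing complex.

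Other calls of at least 2-fold ended in some fits with 1 animal left out. Proser2 (1.79) was not called without 16 h animal 1 or 2 or heart-beating donor 3 (1.69 to 1.80). Zfp354a (1.42), a zinc finger protein, lost its call without 16 h animal 1 or 2 or heart-beating donor 1 or 3 (1.05 to 1.39), with 16 h values of 8.86, 8.18 and 7.34. Mfsd2a (1.37), a carrier of lysophospholipids, Rab30 (1.25), a Golgi GTPase, and Ccn2 (1.18), a matrix protein downstream of TGF beta and YAP, lost theirs without any of the 16 h animals or heart-beating donors 1 and 3 (ranges 1.19 to 1.47, 0.97 to 1.30 and 0.94 to 1.28). In all 3, donor 2 was the highest control, at 8.65, 8.26 and 7.19. Tcim (1.36) ended without the same animals or 4 h animal 3 (1.10 to 1.42). Cdc25b (1.04), a phosphatase of the cell cycle, ended without any heart-beating or 16 h animal or 4 h animal 2 (0.91 to 1.15). Mest (1.02), an imprinted gene with controls at 6.89, 5.30 and 6.08, ended in 9 of the 12 fits, without any 4 h or 16 h animal, heart-beating donor 2 or 3, or 30 h animal 2 (0.63 to 1.04).

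Among the falls, Tubb2a, a beta tubulin, read 11.72, 11.54 and 11.58 in heart-beating donors and 9.19, 10.17 and 10.34 at 16 h, a fall by 1.71 (SE 0.24, adjusted p = 0.00319). Mug1, a protease inhibitor of rodent plasma, read 9.50, 8.93 and 9.31 against 8.22, 6.61 and 7.35, a fall by 1.86 (SE 0.31, adjusted p = 0.00614). The 16 h animals spread over more than 1 log2 unit in both genes and stayed below all controls. At 30 h Tubb2a stood at -0.02 and Mug1 at -4.26. Lgalsl, a galectin-like protein, read 8.45, 8.44 and 8.37 against 6.93, 6.97 and 6.66 (-1.57, SE 0.10, adjusted p = 2.23e-06), and its other probe set was called lower too. Chka, the choline kinase that begins phosphatidylcholine synthesis, read 7.80, 8.31 and 7.77 against 6.0, 6.65 and 6.86 (-1.45, SE 0.21). Dipk2a, a protein of the secretory pathway, read 9.55, 9.60 and 9.56 against 7.79, 8.48 and 8.55 (-1.29, SE 0.19), with 0 of 2 other probe sets called. In these 3 genes the controls agreed within 0.6 log2 units and no 16 h array reached them. Lack of overlap was a condition for the choice of the 30 largest falls.

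Smaller lasting falls were Rps16 (-0.97), a protein of the small ribosomal subunit, Clpx (-0.98, SE 0.09, adjusted p = 0.000185), the unfoldase of a mitochondrial protease, Gpam (-0.95), the first enzyme of triglyceride synthesis, and Msra (-0.87), which repairs oxidised methionine. Tmem252 (-0.80), Pebp1 (-0.79), an inhibitor of Raf kinase, Lactb (-0.78), a mitochondrial protein, Litaf (-0.77), a protein of late endosomes, Qng1 (-0.75), Ost4 (-0.71), a subunit of oligosaccharyltransferase, Inhbc (-0.68), an activin subunit made in liver, Magt1 (-0.65), a magnesium transporter, and Spata1 (-0.64) followed. Svil (-0.68), an actin-binding protein, and Ms4a6bl1 (-0.68) were no longer called when all probe sets of a gene were averaged. Falls of at least 2-fold that depended on single animals were Scd2 (-1.68), a fatty acid desaturase with controls at 7.48, 8.68 and 6.65, which ended without 16 h animal 1 or 2 or heart-beating donor 1 or 2 (-1.75 to -1.14), Tmem37 (-1.23), which ended without 16 h animal 1 or 2 (-1.17 to -1.13), and Rprm (-1.19), a mediator of cell cycle arrest, which ended without 16 h animal 1 or heart-beating donor 2 or 3 (-1.20 to -1.02). Scd2 had 3 other probe sets, of which 0 were called.

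**Figure D3:**
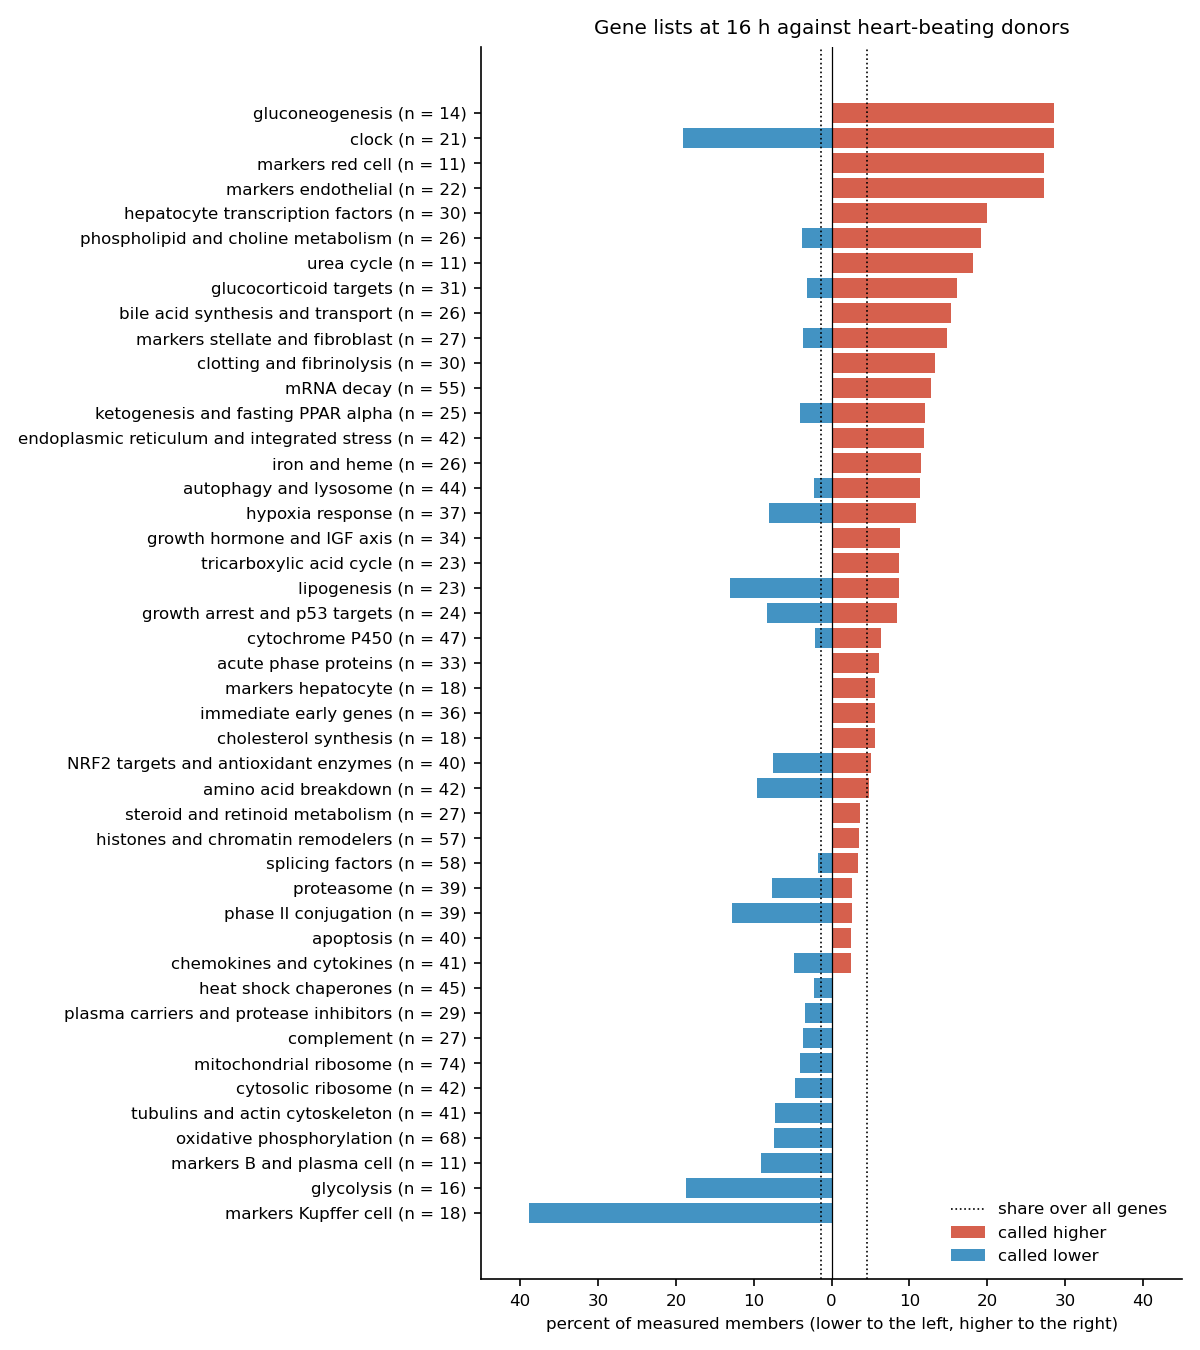
For each gene list with at least 1 call, bars give the percent of measured members called higher (red, right) and lower (blue, left) at 16 h, with the number measured beside the name. Dotted lines mark the shares over all genes, 4.58% higher and 1.36% lower, with 6 of 21 clock genes higher and 4 lower, and 7 of 18 Kupffer cell markers lower.

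In gluconeogenesis, the making of glucose from amino acids and lactate, 4 of 14 measured genes rose and 0 fell, with a median difference of 0.27. Creb3l3, a transcription factor of the fasted liver, read 10.64, 10.56 and 10.60 against 11.09, 11.22 and 11.02 (difference 0.51, SE 0.07, adjusted p = 0.00331), which was a lasting call. Klf15, a regulator of amino acid use, rose by 1.02 and was not called without 16 h animal 1 or 2 or heart-beating donor 3 (0.84 to 1.06). Klf15 had 2 other probe sets, of which 0 were called. Pc, pyruvate carboxylase, rose by 0.52 and Slc37a4, the glucose-6-phosphate carrier, by 0.50. The call of Pc ended without any 16 h animal or heart-beating donor 2 or 3 (0.41 to 0.56), and that of Slc37a4 without 16 h animal 1 or 2 or heart-beating donor 1 or 3 (0.37 to 0.54). The count of 4 became 1 without 16 h animal 1, 16 h animal 2 or heart-beating donor 3, 6 without heart-beating donor 2, and 0 with the Gapdh covariate, under which the median difference was 0.51.

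The enzyme Pck1, which commits carbon to glucose, read 11.50, 13.12 and 12.05 in heart-beating donors against 12.96, 12.94 and 12.98 at 16 h. Donor 2 exceeded every 16 h array, and the difference of 0.74 was not called (adjusted p = 0.183). The others not called were Nr3c1 (0.37, adjusted p = 0.051), the glucocorticoid receptor, Tat (0.35), which breaks down tyrosine, Foxo1 (0.19), a factor restrained by insulin, Pck2 (0.13), the mitochondrial form of the enzyme, Sik1 (0.06), a kinase that restrains the program, Crtc2 (0.02) and Ppargc1a (0.01), coactivators of it (1 of 2 other probe sets of Ppargc1a was called higher), Gcgr (-0.02), the glucagon receptor, and Fbp1 (-0.14), fructose bisphosphatase. Among 25 genes of ketogenesis and the fasting response 3 rose and 1 fell: Cpt1a and Creb3l3 were lasting calls, Lpin2 (0.78), a phosphatidate phosphatase, ended without any 16 h animal or heart-beating donor 1 or 3 (0.67 to 0.81), and the fall of Plin2 (-0.58), a lipid droplet coat, ended without any heart-beating or 16 h animal or 4 h animal 1 (-0.65 to -0.46). Of 19 enzymes of mitochondrial fatty acid oxidation limma called 0, with 1 at an unadjusted p under 0.05 and a median of -0.12, and 2 fell without 30 h animal 1.

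Glycolysis held 3 falls and 0 rises among 16 genes. Pgam1, phosphoglycerate mutase, read 10.99, 10.96 and 11.04 against 10.56, 10.57 and 10.60, a lasting fall by 0.42 (SE 0.08). Pgk1 (-0.56), phosphoglycerate kinase, was not called without 16 h animal 1 or 2 or heart-beating donor 2 or 3 (-0.58 to -0.52), and Ldha (-0.70), lactate dehydrogenase, was not called without 16 h animal 1 or 2 or any heart-beating donor (-0.71 to -0.65). Without 16 h animal 1 or 2 or heart-beating donor 2 or 3 the list had 1 fall, and with the Gapdh covariate 0. In the urea cycle 2 of 11 genes rose and 0 fell, Slc25a13 (0.39), the aspartate carrier, and Glul (0.41), which makes glutamine. Slc25a13 ended without heart-beating donor 3 (0.35), and Glul without 16 h animal 2 or 3 or any heart-beating donor (0.34 to 0.45). The Gapdh covariate left 0 calls in the urea cycle. Cps1, the entry enzyme, read 13.09, 13.18 and 13.04 against 13.11, 13.12 and 13.13, a difference of 0.01. The other enzymes were not called, at 0.03 for Otc, -0.01 for Ass1, 0.62 for Asl (adjusted p = 0.101), 0.09 for Arg1 and -0.06 for Nags, and so were the carrier Slc25a15 (0.18), the glutaminase Gls2 (0.07) and Glud1 (-0.03). Of other probe sets, 1 of 5 of Slc25a15 was called lower and the 1 of Glud1 higher.

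In lipid synthesis 2 of 23 genes rose and 3 fell (1 and 0 with the Gapdh covariate). Elovl2, which lengthens polyunsaturated fatty acids, read 8.96, 8.47 and 8.32 against 9.60, 9.58 and 9.72 (difference 1.05, SE 0.15), and Fads1, a desaturase of the same pathway, rose by 0.59 (SE 0.10). Gpam read 6.40, 6.31 and 6.41 against 5.31, 5.35 and 5.60, and Agpat2, which acts after it in glycerolipid synthesis, fell by 0.53 (SE 0.09). All 4 were lasting calls, so members of this list moved both ways. Among 26 genes of phospholipid and choline metabolism 5 rose and 1, Chka, fell. Of the rises, Pcyt1a (0.45), the enzyme that follows choline kinase, and Gpcpd1 (0.81), a phosphodiesterase, were not called without 16 h animal 1 or 2 or heart-beating donor 3 among others. For Gpcpd1 these 3 were all (0.66 to 0.83), and for Pcyt1a heart-beating donor 1, every 4 h animal and 30 h animal 3 were added (0.31 to 0.50). The third named rise of the list was Lpin2. The 5 rises became 0 without 16 h animal 1 or 2 or heart-beating donor 3, and 2 or 3 without 16 h animal 3, heart-beating donor 1, any 4 h animal or 30 h animal 2 or 3. Cyclic loess left 2 and the Gapdh covariate 0.

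Bile acid genes leaned upward, with 23 of 26 above 0, 4 called higher, 0 lower and a median of 0.22. Over all genes 47.9% lay above 0, and genes with a control mean from 8 to 10 had a median of 0.06. Cyp7a1, the rate-limiting enzyme of bile acid synthesis, read 9.38, 11.06 and 10.55 in heart-beating donors and 11.84, 12.02 and 11.70 at 16 h, a 2.87-fold difference (log2 1.52, SE 0.34, adjusted p = 0.0211). Controls spread over more than 1.5 log2 units, and the call ended without 16 h animal 1 or 2 or heart-beating donor 3 (1.44 to 1.63). Abcc2, the canalicular pump for conjugated organic anions, read 10.63, 10.41 and 10.63 against 11.28, 11.14 and 11.45, a lasting rise by 0.73 (SE 0.12, adjusted p = 0.00619). Nr0b2 (SHP), the receptor that represses Cyp7a1, rose by 1.06 (adjusted p = 0.03), and its call ended without any heart-beating or 16 h animal (0.96 to 1.18). Amacr (0.32), a racemase of bile acid intermediates, ended without any 16 h animal or heart-beating donor 2 or 3 (0.29 to 0.33). The list had 1 call without 16 h animal 1 or 2 or heart-beating donor 3, and 2 with the Gapdh covariate.

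In drug metabolism the counts stand beside shares over all genes of 4.58% called higher and 1.36% called lower. Of 47 cytochrome P450 genes and their partners 3 rose and 1 fell, with a median of 0.04, and without 16 h animal 1 or 2 or heart-beating donor 3 there were 0 calls in either direction. Cyp2e1, an ethanol-inducible enzyme, read 13.55, 13.57 and 13.44 against 13.58, 13.53 and 13.48. Por, the reductase that serves all microsomal P450 enzymes, read 7.87, 8.81 and 7.91 against 9.58, 9.17 and 9.12 (1.09), and its call ended without any 16 h animal, heart-beating donor 1 or 3 or 4 h animal 2 (0.93 to 1.18). Cyp2c22 (-0.82), a retinoid-metabolising enzyme, was not called without 16 h animal 1 or 2 or heart-beating donor 2 or 3 (-0.82 to -0.67). In conjugation 5 of 39 genes fell and 1 rose. Sult1b1, a sulfotransferase, read 12.31, 12.49 and 12.37 against 11.93, 11.87 and 12.06, a lasting fall by 0.44 (SE 0.07). The fall of Gsta3 (-0.96), a glutathione transferase, ended without 16 h animal 1 or heart-beating donor 3 (-0.88 to -0.86). The number of falls was 1 without 16 h animal 1 or heart-beating donor 3, 2 without 16 h animal 2, 3 without 16 h animal 3 or heart-beating donor 1 or 2, and 9 without 30 h animal 1. The Gapdh covariate left 0 falls.

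Among 30 transcription factors of hepatocytes 6 rose and 0 fell, with a median of 0.11. The Gapdh covariate left 0 calls in that list. Hnf4a, a master regulator of hepatocyte identity, read 10.44, 10.38 and 10.22 against 10.96, 11.04 and 10.86, a lasting rise by 0.61 (SE 0.11), though 0 of its 2 other probe sets were called. Thrb, a thyroid hormone receptor, rose by 0.53 (SE 0.07) as a lasting call, with 0 of 3 other probe sets called, and Onecut2 by 0.56, which ended without 16 h animal 2 (0.53). The count was 3 without that animal. Of 29 plasma carriers and protease inhibitors Mug1 was the 1 call, and of 26 apolipoproteins limma called 0, with 7 at an unadjusted p under 0.05. The share called over all genes was 5.94%. Without 30 h animal 1 the apolipoproteins held 2 rises and 1 fall, and without 30 h animal 3 or heart-beating donor 2 they held 1 fall. Of 30 clotting genes 4 rose: Klkb1 (0.49, SE 0.09), plasma prekallikrein, and Serpinf2 (0.45, SE 0.08), antiplasmin, were lasting, F5 (0.45), a cofactor of coagulation, ended without 16 h animal 1 or 2 or heart-beating donor 3 (0.35 to 0.45), and Tfpi2 (0.28) ended without any heart-beating or 16 h animal (0.23 to 0.32). Without 16 h animal 1 or 2 or heart-beating donor 3 that count was 2, and with the Gapdh covariate it was 0.

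Counts of immediate early genes and of genes induced by glucocorticoids were higher without heart-beating donor 2. That donor was the highest control in 31 of 36 measured immediate early genes, so leaving it out raises the differences of those 31 by construction. With all 3 controls 2 of 36 immediate early genes rose and 0 fell. Zfp36, which marks cytokine transcripts for decay, read 7.97, 8.38 and 7.91 against 9.30, 9.47 and 9.76 (1.42, SE 0.14, adjusted p = 0.000262) and was a lasting call. Junb (0.97), a member of the AP-1 family, was not called without 16 h animal 2 or heart-beating donor 1 or 3 (0.85 to 0.94). Fos, the other classic AP-1 member, read 4.33, 4.97 and 4.53 against 4.86, 5.33 and 5.58 with overlapping groups (0.64, adjusted p = 0.555). Without heart-beating donor 2, 9 immediate early genes were called higher and 1 lower, among all genes 3.09% and 0.788%. Jun went from 1.14 with all controls to 2.25 without that donor (adjusted p = 0.0461), Egr1 from 1.70 to 2.53 (adjusted p = 0.0238), and Myc from 0.38 to 1.41 (adjusted p = 0.000677). Without 16 h animal 2 or heart-beating donor 1 or 3 the list had 1 call.

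Of 31 glucocorticoid targets 5 rose and 1 fell, with a median of 0.44. Without heart-beating donor 2 there were 14 rises and 1 fall, with a median of 0.73. Sds, a serine dehydratase of the fasted liver, differed by 1.75 with all controls and 2.65 without that donor (adjusted p = 0.0015), Dusp1, a phosphatase of MAP kinases, by 2.04 and 2.57 (adjusted p = 0.0232), and Lpin1, a phosphatidate phosphatase, by 1.07 and 1.91 (adjusted p = 0.0149). Tsc22d3, a mediator of glucocorticoid action, went from 0.87 to 1.30 (adjusted p = 0.0242), and Pck1 from 0.74 to 1.18 (adjusted p = 0.00837). Fkbp5, a chaperone that glucocorticoids commonly induce, stood at 0.07 and 0.12 (adjusted p = 0.52). Per1 was the 1 lasting call of the list. Gadd45b, a stress-induced gene, read 5.70, 7.32 and 6.03 against 8.22, 8.13 and 7.64 (1.64), and its call ended without 16 h animal 1 or 2 or heart-beating donor 3 (1.48 to 1.58). Cdkn1a, a brake on the cell cycle, read 7.48, 8.44 and 7.28 against 6.48, 6.81 and 6.86 (-1.02), and its call ended without 16 h animal 1 or 2 (-1.06 to -0.90). The rises numbered 2 without heart-beating donor 1 or 16 h animal 1 or 3 and 1 without heart-beating donor 3 or 16 h animal 2. The Gapdh covariate left 0. Donor 2 was singled out after its values were seen, and its removal raises the difference of any gene in which it was the highest control. The calls without it are therefore no separate support for a rise.

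**Figure D4:**
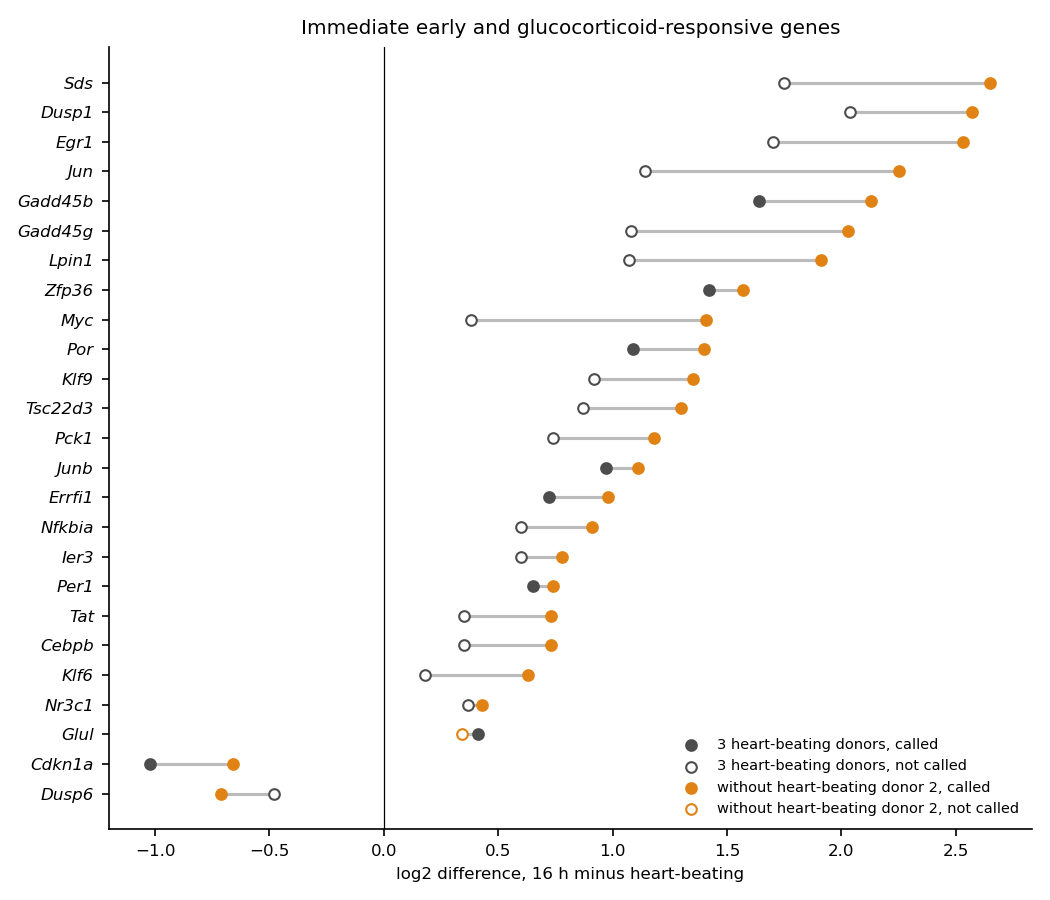
Log2 difference at 16 h of immediate early and glucocorticoid-responsive genes called with all 3 heart-beating donors (grey) or without donor 2 (orange), with filled points for calls. Most orange points lie to the right of the grey ones, for example Jun at 2.25 against 1.14 and Myc at 1.41 against 0.38. That shift follows by construction wherever donor 2 was the highest control.

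Among stress genes, Hmox1, a stress-inducible heme oxygenase, read 7.86, 7.82 and 7.75 against 7.82, 7.77 and 7.76. Of 45 heat shock chaperones 1 fell, Hspa4l (-0.55), and that call ended without 16 h animal 2 or heart-beating donor 2 (-0.46 to -0.45). Of 40 apoptosis genes 1 rose, Bnip3l (0.42), a mitochondrial receptor for autophagy, which ended without 16 h animal 2 or heart-beating donor 3 (0.36 to 0.43). With 4.58% of all genes called higher and 1.36% lower, these single calls are no result about their lists. Of 37 genes of the hypoxia response 4 rose and 3 fell, none of them lasting. Without 16 h animal 2, or with the Gapdh covariate, there were 0 in each direction. Hif1a, an oxygen-regulated transcription factor, read 9.44, 9.49 and 9.44 against 9.86, 9.74 and 9.75 (0.33). Its call ended without 16 h animal 1 or 2 or heart-beating donor 1 or 3 (0.29 to 0.35). The hypoxia counts without 16 h animal 1 were 2 and 1 and without heart-beating donor 3 they were 1 and 1, and without heart-beating donor 2 the falls numbered 1.

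In the endoplasmic reticulum and integrated stress list 5 of 42 genes rose and 0 fell. Ppp1r15b (0.72), a regulator of translation restart, ended without 16 h animal 2 (0.61), Atf6 (0.40), a sensor of unfolded proteins, without 16 h animal 2 or heart-beating donor 3 (0.34 to 0.36), and Herpud1 (0.90), a degradation factor, without any 16 h animal or heart-beating donor 1 or 3 (0.71 to 0.95). The list had 2 calls without 16 h animal 1, 1 without 16 h animal 2 or heart-beating donor 3, and 3 without heart-beating donor 1 or 4 h animal 1. The Gapdh covariate left 0. Of 40 genes of the NRF2 and antioxidant list 2 rose and 3 fell, and Abcc2 and Msra were the lasting ones. The rises numbered 1 without any heart-beating or 4 h animal or 16 h animal 1 or 2, and 4 without 30 h animal 1. The falls numbered 1 without any 16 h animal or heart-beating donor 1 or 3, and 5 without 30 h animal 1. The Gapdh covariate left 0 falls, with 2 rises. Nfe2l2 (NRF2) itself fell by 0.59, a call that ended without any 16 h animal or heart-beating donor 1 or 3 (-0.61 to -0.48). In autophagy and lysosome genes 5 of 44 rose and 1 fell. Wipi1, which acts at the forming autophagosome, read 6.68, 6.38 and 6.45 against 7.44, 7.45 and 7.41 (0.93, SE 0.11, adjusted p = 0.00076), and its 1 other probe set was not called. Atg14 (0.76, SE 0.11), a subunit of the lipid kinase that starts the process, and Hexa (0.39, SE 0.07), a lysosomal hexosaminidase, were lasting rises as well. The fall in that list was Ctss (-0.78, SE 0.11), a cathepsin of macrophages. The rises of that list numbered 3 without 16 h animal 1 or 2 or heart-beating donor 3 and 8 without 30 h animal 2. The Gapdh covariate left 0 calls in it.

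Of 68 subunits of oxidative phosphorylation 5 fell and 0 rose, and 56 lay below 0 (median -0.14). Uqcrc2 of complex III read 10.66, 10.53 and 10.65 against 10, 9.64 and 9.68, a lasting fall by 0.84 (SE 0.12), and its other probe set was called lower too. Ndufb8 of complex I fell by 0.61 (SE 0.10), also lasting, and stood at -1.53 at 30 h. Of 74 mitochondrial ribosomal proteins 3 fell, with Mrpl17 (-0.63, SE 0.10) lasting, of 42 cytosolic ribosomal proteins 2 fell, with Rps16 lasting, and of 39 proteasome genes 3 fell and 1 rose, none lasting. Rps16 read 11.58, 11.62 and 11.65 against 10.83, 10.58 and 10.53. The medians were -0.10, -0.13 and -0.15, and with the Gapdh covariate all 4 became positive (0.22, 0.34, 0.14 and 0.15) with 0 falls in each list, so the direction of these lists depends on that covariate. The shift was not particular to them. Mitochondrial fatty acid oxidation went from -0.12 to 0.27 and heat shock chaperones from 0.01 to 0.39, while endothelial markers went down from 0.22 to 0.05. Falls in oxidative phosphorylation numbered 2 without 16 h animal 2 or 3 or heart-beating donor 3, 3 without 16 h animal 1 or heart-beating donor 1 or 2, and 14 without 30 h animal 1. Without that 30 h animal the other 3 lists had 14, 6 and 7 falls, and without 30 h animal 3 the cytosolic ribosome had 4. Without any single heart-beating or 16 h animal these 3 lists had 0 to 3 falls.

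Among genes of mRNA decay 7 of 55 rose and 0 fell, with Zfp36 as the lasting call, and the count was 1 without 16 h animal 1 or 2 or heart-beating donor 3. The Gapdh covariate left 1 as well. Edc3 (0.49), a factor of decapping, ended without 16 h animal 1 or 2 or heart-beating donor 1 or 3 (0.42 to 0.49), and Upf2 (0.38), of nonsense-mediated decay, without 16 h animal 1 or 2 or heart-beating donor 2 or 3 (0.33 to 0.38).

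Markers of cell types were read to see what the preparations held. The defining hepatocyte markers were strong in every array: Alb read 14.49 to 14.5, Ttr 13.79 to 13.92, Apoa1 12.40 to 12.55 and Cps1 13.04 to 13.18. The highest value on each array lay between 14.4869 and 14.5025, so Alb sat at the top of the scale and could hardly differ. A summed signal weighs such strong genes most. Of 18 hepatocyte markers Hnf4a was the 1 call (3 without heart-beating donor 2, 0 with the Gapdh covariate), and the log2 of their summed signal was 17.15 to 17.22 in heart-beating donors and 17.20 to 17.24 at 16 h. In such bulk samples fewer cells of a type and less RNA per cell cannot be told apart. The arrays hold no detection calls here, so a low value is not taken as absence.

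Kupffer cell markers fell: 7 of 18 were called lower, 0 higher, with a median of -0.33, and their summed log2 signal went from 13.18 to 13.23 in heart-beating donors to 12.66 to 12.86 at 16 h. Ccl6, a chemokine of macrophages, read 10.61, 10.62 and 10.65 against 9.35, 8.71 and 9.05, a fall by 1.59 (SE 0.20, adjusted p = 0.00157). Cd5l, a scavenger protein secreted by Kupffer cells, read 10.19, 10.30 and 10.21 against 9.40, 9.23 and 9.32 (-0.91, SE 0.12), and its other probe set was called lower too. Adgre1 (F4/80) read 6.22, 6.11 and 6.04 against 5.61, 4.93 and 5.17 (-0.88, SE 0.15), and Cd14, the receptor for bacterial lipopolysaccharide, fell by 0.65 (SE 0.10). None of these groups overlapped and all 4 calls were lasting, as the choice of the 30 largest falls, to which they belong, required. At 30 h Ccl6, Cd5l and Adgre1 stood at -2.20, -1.18 and -1.38, but Cd14 at 0.00. Not every macrophage marker followed: Clec4f, which is restricted to Kupffer cells in rodents, differed by -0.19 (adjusted p = 0.349) and Cd163 by -0.36 (adjusted p = 0.318). The 2 members above 0, neither called and both named after their values were seen, were Mrc1 (0.44), the mannose receptor, and Slc40a1 (0.19), the iron exporter. The macrophage genes Ms4a6a (-0.64), Ctss and Il18 (-0.42), a cytokine, fell as lasting calls, and C1qc (-0.52), of complement, ended without any heart-beating or 16 h animal (-0.59 to -0.48). The Kupffer count was 4 without 16 h animal 2, and 0 with the Gapdh covariate, where the median was -0.18.

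Endothelial markers rose: 6 of 22 were called higher and 0 lower, with a median of 0.22, and their summed log2 signal went from 12.30 to 12.46 to between 12.77 and 12.82. Lyve1, a hyaluronan receptor of sinusoidal endothelium, read 9.19, 9.0 and 9.20 against 10.04, 9.99 and 10 (0.88, SE 0.13, adjusted p = 0.00417), and Fcgr2b, which clears immune complexes there, read 8.82, 8.75 and 9.01 against 9.65, 9.54 and 9.71 (0.78, SE 0.14). Both were lasting calls, and their groups were apart by more than 0.5 log2 units. Stab2 (0.56), a scavenger receptor of the same cells, ended without 16 h animal 1 or 2, any heart-beating donor or any 4 h animal (0.44 to 0.63), Ramp2 (0.68) without 16 h animal 1 (0.60) and Bmp2 (0.54) without 16 h animal 2 (0.54). Pecam1, found on all endothelium, differed by 0.20 (adjusted p = 0.169). The count was 3 without 16 h animal 1 or 2, and 0 with the Gapdh covariate (median 0.05). At 4 h Lyve1, Fcgr2b and Bmp2 stood at 0.59, 0.58 and 0.55, Ramp2 at 0.33 and Stab2 at -0.04. None of them was called there by limma (adjusted p from 0.236 to 0.993).

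Of 27 stellate cell and fibroblast markers 4 rose and 1 fell, none lasting, and cyclic loess and the Gapdh covariate each left 0 rises. Reln (0.45), a secreted glycoprotein of stellate cells, ended without 16 h animal 1 or 2 or any heart-beating donor (0.37 to 0.53), and Lrat, which stores retinol, was not called (0.83, adjusted p = 0.087), with donor 2 at 6.10 against 7.30 in both other controls. The rises numbered 0 without 16 h animal 1 or 2 or heart-beating donor 2, 1 without heart-beating donor 1 and 2 without heart-beating donor 3. The fall, Acta2 (-0.37), ended without 16 h animal 1 or 2, heart-beating donor 2 or 3 or any 4 h animal (-0.37 to -0.31). Red cell transcripts rose in 3 of 11 genes. Hbb, a beta globin, read 11.50, 11.42 and 11.78 against 13.27, 13.55 and 13.43 (1.85, SE 0.32, adjusted p = 0.0069), and was lasting. Alas2 (2.45), which begins heme synthesis in erythroid cells, ended without 16 h animal 2 or heart-beating donor 1 or 3 (2.27 to 2.56), and Hba-a3 (1.59), an alpha globin, without 16 h animal 2 (1.56). Without that animal the list had 1 call, and with the Gapdh covariate 0. Hbb, Alas2 and Hba-a3 stood at 1.02, 1.22 and 0.83 at 4 h, where limma called none of them (adjusted p from 0.739 to 0.897). The 4 h animal 3 read 11.59, 6.13 and 10.43 and did not exceed the controls. At 30 h the same genes stood at 1.89, 2.45 and 1.80 and were called (adjusted p from 0.00113 to 0.00524). The 11 cholangiocyte, 19 T and NK cell, 12 neutrophil and 14 pancreatic acinar markers held 0 calls by limma, with 2, 3, 3 and 2 at an unadjusted p under 0.05 and medians of -0.05, -0.02, -0.15 and -0.08. A neutrophil marker fell without 4 h animal 1 and an acinar one without heart-beating donor 3. Of 11 B and plasma cell markers 1 fell, RT1-Da (-0.45), a class II molecule that macrophages also carry, and that call ended without 16 h animal 2 or heart-beating donor 3 (-0.46 to -0.37).

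**Figure D5:**
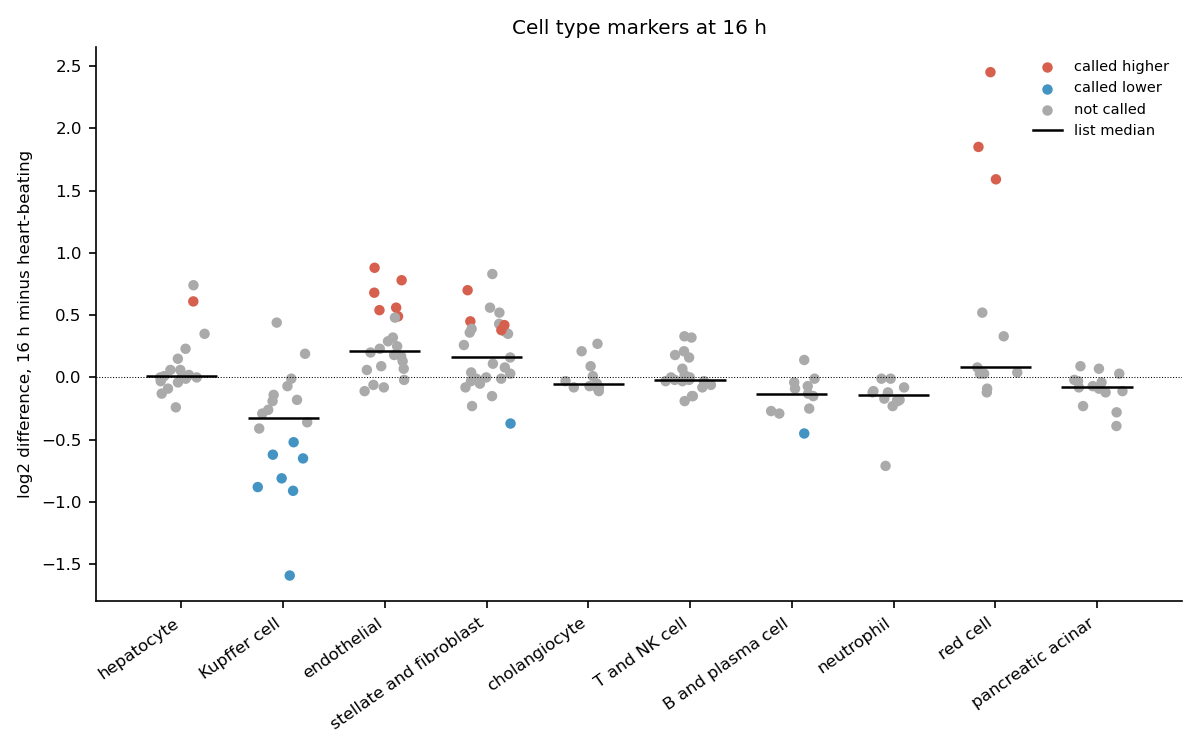
Log2 difference at 16 h of each measured marker of 10 cell types, with red and blue points for genes called higher and lower, grey for those not called, and a bar at the list median. Kupffer cell markers lie mostly below 0 (median -0.33) and endothelial markers mostly above (median 0.22).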

How the data were processed

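The authors deposited log2 signals per probe set made with RMA, which corrects background, equalises the arrays by quantiles and sums up the probes of a set, and used limma, per the submitters' processing notes. Their versions and settings are not stated in those notes. Array intensities have no count depth, so the number of arrays limits the precision. Probe sets were named through the platform's annotation, and the gene tests leave out 436 with several symbols and 9780 with no symbol. Each gene was represented by the probe set whose mean over the 12 arrays was highest; 4525 of 14217 genes had more than 1.

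All 12 arrays entered 1 linear model of 4 group means (limma 3.58.1 under R 4.3.3, functions lmFit and eBayes), which had 8 residual and 4.89 prior degrees of freedom. p-values were adjusted over all 14217 genes by Benjamini-Hochberg. The script was tested on simulated data. The genes named in the text were the 30 largest rises and 30 largest falls among calls that held with each array left out in turn and had no overlap, all other calls of at least 2-fold, up to 4 called members of each of 53 gene lists with the smallest p, every measured clock, urea cycle and gluconeogenesis gene, defining markers and a few reference genes. The genes described without heart-beating donor 2 were added to these after their values were seen. The comparison, lists and rule were chosen with earlier results of these data known. The lists held 1881 entries, of which 1647 were measured. Animals with the same number were not paired: the correlations of their deviations from the group means were 0.067, -0.085 and 0.067. The alternatives were array weights, cyclic loess, median centring, quantiles again, robust estimation with a variance trend, averaged probe sets, single probe sets, the upper 50% of genes by signal, fits of only the groups compared or without the 30 h arrays, a replicate block, the Gapdh covariate and leaving out each array.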

Additional observations from a re-analysis of the deposited data

Results flagged for a closer look

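Among the 60 genes with the largest lasting changes at 16 h, 30 higher and 30 lower, 44 differed between the donors dead for 30 h and those dead for 16 h in a limma test of that difference itself (adjusted p from 3.3e-08 to 0.0482). The genes were chosen by their values at 16 h, which enter this difference too, so the test does not stand apart from the choice. All values are log2 differences of 30 h minus 16 h.

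Of these 60, all rises that differed were lower at 30 h: Dbp (-3.95), Nr1d2 (-3.21), Nr1d1 (-3.28), Hsd17b2 (-3.13), Cpt1a (-2.69), Per3 (-1.31), Zfp36 (-0.68), Pim3 (-1.07), Ccnd1 (-0.91), Il1r1 (-0.54), Bcar3 (-1.05), Magi3 (-0.66), Tef (-1.01), Elovl2 (-0.87), Arhgef3 (-0.98), Tbcel (-0.49), Jade1 (-0.63), Baiap2l1 (-1.14), Osbpl11 (-1.0), Wipi1 (-0.70), Fbxo31 (-0.57), Sik2 (-0.52) and Gpr146 (-0.95). Of these Hsd17b2, Cpt1a, Osbpl11, Gpr146 and Baiap2l1, with the clock genes Dbp, Nr1d1 and Nr1d2, had mean values at 30 h below those of the heart-beating donors. Only Cpt1a was called there against heart-beating donors by limma (adjusted p = 0.0125), and the others were not (adjusted p from 0.0793 to 0.794). Some falls were smaller at 30 h: Tubb2a (1.70), Npas2 (1.48), Lgalsl (2.19), Chka (1.78), Dipk2a (1.64), Bmal1 (0.76), Clpx (0.54), Gpam (0.89), Tmem252 (0.56), Litaf (0.31), Svil (0.49) and Cd14 (0.64). Lgalsl, Chka and Dipk2a stood above the heart-beating mean at 30 h, by 0.63, 0.33 and 0.35. By limma Lgalsl was called there (adjusted p = 0.000708), and Chka (adjusted p = 0.307) and Dipk2a (adjusted p = 0.232) were not. The remaining falls were larger at 30 h: Mug1 (-2.40), Adgre1 (-0.50), Msra (-1.29), Uqcrc2 (-1.05), Pebp1 (-0.70), Ost4 (-0.42), Magt1 (-0.86), Spata1 (-0.46) and Mrpl17 (-0.43).

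Probe sets that carry no symbol or more than 1 entered no comparison of genes. Of them, 314 were called at 16 h (3.07%), 227 higher and 87 lower, with 29 changed at least 2-fold.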

How the results depend on the processing

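The count of 845 genes called at 16 h (651 genes called higher at 16 h and 194 genes called lower at 16 h) was 102 (82 and 20) with the Gapdh covariate, where the median SE of the genes called before went from 0.10 to 0.17 and 98.6% kept their direction. It was 2631 (1693 and 938) with array weights, 1326 with only the groups compared, where the falls numbered 416, and 1526 (1046 and 480) without the 30 h arrays. The mean of all probe sets gave 398 rises, cyclic loess 311 falls, and probe sets taken one by one 416 falls. The 13 genes called and at least 2-fold lower at 16 h were 5 with the covariate and 23 with probe sets one by one. Leaving out 1 array gave 244 to 1328 calls, 184 to 917 higher and 60 to 411 lower, 17 to 58 at least 2-fold higher and 11 to 16 at least 2-fold lower, and a Gapdh 3' minus 5' difference of 0.57 to 0.76 and an Actb one of 0.20 to 0.53. A replicate block on the animal numbers gave 630 calls, 487 higher and 143 lower, and 605 of them were among the 845. Single genes were followed across settings for 237 genes only. Among these the sign turned with the mean of all probe sets in Ahcyl1 (-0.07), Gramd2b (-0.06), Nedd4 (-0.09) and Pnpla8 (-0.07), each of which has probe sets called in opposite directions, and with the covariate in Gstm2 (0.02), Mrpl35 (0.01) and Psmd8 (0.04). Over all 845 calls 99.1% kept their direction with the mean of all probe sets. The cause of these changes was not tested beyond what each alternative changes by construction.

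All 189 lasting calls stayed called under median centring, cyclic loess, quantile normalization, the variance trend, array weights, only the groups compared, the replicate block and the fit without the 30 h arrays. With the mean of all probe sets 153 of 189 did, and with the covariate 42.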

Other observations

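Of the 845 called genes, 695 belonged to none of the gene lists.

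Probe sets of the same gene read different stretches of its transcripts, and they did not always move together. Of 368 called genes with other probe sets, 62 (16.8%) had another probe set called the same way, 44 of 308 (14.3%) among rises and 18 of 60 (30.0%) among falls. In 7 genes, chosen after their values were seen, 1 probe set was called higher and another lower. Nedd4, a ubiquitin ligase, had 0.50 (adjusted p = 0.00686) and -0.60 (adjusted p = 0.0163). Gramd2b had 0.38 and -0.58, Ahcyl1 0.36 and -0.44, Pnpla8 0.39 and -0.41, Arid1b, a subunit of a chromatin remodeling complex, 0.55 and -0.23, Mia2 0.25 and -0.47, and Tgoln2, a protein of the trans-Golgi, 0.26 and -0.31.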
